A study of Mus musculus with 10 samples.

Results

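The 9 genes described here encode enzymes that make, lengthen and desaturate fatty acids: Acly, Acss2, Acaca, Fasn, Elovl6, Scd1, Scd2, Fads1 and Fads2. They were chosen by symbol in the deposited list of transcribed units (TUs), which are segments of 1 strand that the authors called as transcribed, where each of the 9 had 1 TU among 16137 TUs with a gene symbol and 40779 TUs in all. All 9 passed the filter on low counts and were tested.

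Fatty acids are built in the cytosol from acetyl-CoA. ATP citrate lyase (Acly) releases it from citrate and acetyl-CoA synthetase (Acss2) makes it from acetate, acetyl-CoA carboxylase (Acaca) turns it into malonyl-CoA, and fatty acid synthase (Fasn) joins these units into palmitate. Elovl6 lengthens palmitate to stearate, the stearoyl-CoA desaturases (Scd1, Scd2) add the first double bond, and the front-end desaturases (Fads1, Fads2) act on polyunsaturated chains. Many of these genes are known targets of the sterol regulatory element-binding proteins (SREBPs), membrane-bound transcription factors that are released when sterols run low, and dividing stem cells use such lipids for new membranes.

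Nascent RNA was measured by TT_chem_seq, in which RNA made during a short pulse of 4-thiouridine (4SU) is captured and sequenced, in mouse embryonic stem cells (mESC) of the E14 line. All cells were of the genotype SOX2-FKBP, in which the pluripotency factor SOX2 carries a degron tag that the small molecule dTAG-13 directs to the proteasome. Per the study's methods, homozygous clones that responded to dTAG-13 were used, cells grew in serum-free medium with LIF and inhibitors of MEK and GSK3, fresh medium was given before treatment, and staggered depletions ended in a joint harvest. The 5 groups of 2 replicates were DMSO controls (NT, not treated) and SOX2 depletions by 500 nM dTAG-13 for 0.5, 1, 2 and 6 h (hours post depletion, hpd), and each group received a 10 min pulse of 2 mM 4SU. Untagged cells given dTAG-13 were not analysed here, so an effect of the compound itself cannot be told apart from loss of SOX2. No label says that replicates came from separate cultures, so p-values measure the spread between these libraries, which may be technical.

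The 10 libraries held 11131490 to 25854106 fragments in TUs, and a TU of the 9 genes held 262 (Acss2) to 23013 (Elovl6) fragments in a library. The Sox2 TU did not check the depletion, which acts on the protein: its log2 changes against NT were -0.01, -0.12, 0.09 and 0.06 over the 4 times (edgeR adjusted p of 0.99, 0.62, 0.66 and 0.74). Klf2, a naive pluripotency factor, had a log2 change of -2.58 already at 0.5 hpd (edgeR adjusted p 1.3e-07). The summed level of 10 embryonic stem cell markers was 4433 to 4851 CPM (fragments in a TU relative to the TMM-scaled library size) in NT and 3806 to 4066 at 6 hpd, and 5 of the 10 were called down at 6 hpd, as were 9.2% of all TUs. Summed levels of trophoblast, primitive endoderm, fibroblast and lipogenic tissue markers were at most 62.4 CPM in any library, and 8 of the 10 adipocyte and hepatocyte markers had no TU. Primitive endoderm markers went from a summed 17.6 to 17.9 CPM in NT to 51.7 to 62.4 CPM at 6 hpd, most of it from Dab2 (44.7 and 54.7 CPM at 6 hpd, log2 change of 1.92, edgeR adjusted p 5.8e-07). Fibroblast markers went from 9.74 to 12.5 CPM in NT to 25.7 to 29.8 at 2 hpd and 27.3 to 42.6 at 6 hpd, mostly from Pdgfrb, which was called up from 1 hpd on. Of the 4 tested trophoblast markers, Krt8 was called down at 1 and 2 hpd (-1.18 and -1.95) and again at 6 hpd, Gata3 and Ascl2 were not called, and Eomes had 2.15 and 2.69 CPM in NT, 7.63 and 9.18 after 2 h, and 3.16 and 3.49 after 6 h, called up at 0.5, 1 and 2 hpd (log2 changes of 1.52, 1.64 and 1.79) and not at 6 hpd (0.47), while the summed trophoblast markers were 23.2 to 25.7 CPM in NT and 23.4 to 25.7 at 2 hpd. The part of these markers in the values below was not tested.

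On mm10, Acly lies on the minus strand of chromosome 11 (TU 100472794 to 100528000), as does Fasn (120796407 to 120824547), with Acaca on the plus strand (84179787 to 84410920). Acss2 lies on the plus strand of chromosome 2 (155518078 to 155607177) and Elovl6 on the plus strand of chromosome 3 (129532315 to 129666433). Chromosome 19 holds both desaturase pairs: Scd2 (plus strand, 44293676 to 44332910) and Scd1 (minus strand, 44366345 to 44409358), and Fads2 (minus strand, 10051030 to 10102620) and Fads1 (plus strand, 10182301 to 10204190). Each TU covers exons and introns together and runs on past the annotated end of its transcript. This stretch made up 66.4% of the Scd2 TU, 65.3% of the Scd1 TU and 49.9% of the Acss2 TU, against 4.01% for Acaca and 6.44% for Acly. For Acss2 the stretch lies opposite the gene Gss.

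Promoter windows of RefSeq (GRCm38.p6, the same build as mm10), reaching from 250 bases before to 50 bases after a gene's annotated start, were available for Acly, Acss2, Acaca, Fasn, Elovl6 and Fads2 (6 of 9 genes), and Scd1, Scd2 and Fads1 had no entry. They were searched on both strands for 5 motifs: the sterol response element core CACNCCA, the E-box CACGTG, the CCAAT box CCAAT (reverse ATTGG) bound by NF-Y, the GC box GGGCGG (reverse CCGCCC) bound by SP factors, and the SOX core ACAANG. Matches of CCAAT and its reverse can overlap, as they do in Fasn. The CCAAT box was found in 3 of the 6 windows (Acly, Acss2, Fasn), against 37.4% of all 32851 windows, the GC box in 3 of 6 (Acly, Acss2, Fads2) against 35.7%, and the SOX core in 1 of 6 (Acss2) against 41.2%. The sterol response element core was in 0 of 6 windows against 18.4% of all, and the E-box in 0 of 6 against 7.15%, which says only that these letters are not in these windows. The Acaca window lies 15.7 kb inside its TU, and the Fads2 window 1.12 kb inside. Below are the last 200 bases before the annotated start of 4 genes, with every motif match in capitals. They are shown because Acly rose and fell back, Acss2 holds all 3 matched motifs, Fasn was the gene that fell and Elovl6 holds none.
Acly promoter, chr11:100528001-100528200, minus strand: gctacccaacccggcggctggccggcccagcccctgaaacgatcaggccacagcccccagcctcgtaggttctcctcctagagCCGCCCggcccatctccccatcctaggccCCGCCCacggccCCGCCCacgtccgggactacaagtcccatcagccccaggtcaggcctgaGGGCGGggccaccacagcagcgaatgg
Acss2 promoter, chr2:155517843-155518042, plus strand: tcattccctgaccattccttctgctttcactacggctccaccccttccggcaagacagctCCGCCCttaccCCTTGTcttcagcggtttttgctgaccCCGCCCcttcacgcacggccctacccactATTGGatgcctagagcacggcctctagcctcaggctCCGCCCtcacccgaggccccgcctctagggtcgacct
Elovl6 promoter, chr3:129532186-129532385, plus strand: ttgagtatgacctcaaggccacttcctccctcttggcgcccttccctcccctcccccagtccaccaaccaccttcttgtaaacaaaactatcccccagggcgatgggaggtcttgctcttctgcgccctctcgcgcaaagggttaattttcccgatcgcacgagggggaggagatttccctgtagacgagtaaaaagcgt
Fasn promoter, chr11:120824548-120824747, minus strand: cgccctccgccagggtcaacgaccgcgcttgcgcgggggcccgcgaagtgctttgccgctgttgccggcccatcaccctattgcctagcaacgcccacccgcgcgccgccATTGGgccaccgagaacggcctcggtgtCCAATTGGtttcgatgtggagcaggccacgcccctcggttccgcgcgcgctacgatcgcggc
Fasn is the only one of these 4 stretches with 3 CCAAT matches, at 90, 62 and 59 bases before the start (reverse, forward and reverse on the gene's strand, of which the last pair overlap). Acly has 4 GC boxes in the stretch shown and a CCAAT match after the start, which is not shown. A match is a description of the letters and not a site.

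To ask how transcription of these genes follows the depletion, edgeR compared every time with NT, with p adjusted over all 28459 TUs tested. Levels are given as CPM with TMM-scaled library sizes, and TUs with an adjusted p under 0.05 are called. Most of the genes rose by 2 hpd: 0 of 9 were called up at 0.5 hpd, 4 at 1 hpd (Acly, Elovl6, Scd1, Scd2), 7 at 2 hpd (all but Fasn and Fads1) and 2 at 6 hpd (Elovl6, Scd2), when Fasn was called down. Of all TUs tested, 0.527%, 2.15%, 4.26% and 6.61% were called up at 0.5, 1, 2 and 6 hpd, and 0.787%, 3.61%, 5.57% and 9.2% were called down. The median log2 change of the 9 genes was 0.17, 0.44, 0.52 and 0.02 at the 4 times, against -0.02, -0.04, -0.04 and -0.04 for all TUs and 0.01, 0.02, 0.05 and 0.07 for the 14997 tested TUs with a gene symbol. At 6 hpd the median of the 9 thus lay below that of gene TUs. At 0.5 hpd, 7 of the 9 genes lay above 0 and 1 had an unadjusted p under 0.05, as did 9.61% of all TUs (Scd1, log2 change of 0.32, unadjusted p 0.019 in edgeR and adjusted p 0.33), and DESeq2 called 0 as well. Both libraries lay above both NT libraries for 5, 7, 8 and 4 genes at 0.5, 1, 2 and 6 hpd, as they did for 15.6%, 22.9%, 22.7% and 27.5% of all TUs. Both lay below NT for 1, 0, 0 and 1 genes, against 19%, 26.7%, 26.6% and 31% of all TUs. Summed over the 9 genes, the replicates held 2463 and 2299 CPM in NT, 2762 and 2590 after 0.5 h, 3222 and 3115 after 1 h, 3761 and 3344 after 2 h, and 2789 and 2567 after 6 h, with NT and 2 hpd well apart. Since the libraries are of bulk cells, fewer cells of a type and less RNA per cell cannot be told apart. The calls leaned on the NT libraries: without NT replicate 2, 0 genes were called up at 1 hpd, 2 at 2 hpd (Scd2, Elovl6) and 0 at 6 hpd, and without NT replicate 1 the counts were 2, 5 and 0. Without either 1 hpd library, 0 genes were called up at 1 and at 6 hpd (Fasn was still called down at 6 hpd), and without 2 hpd replicate 1, 4 were called at 2 hpd. Without 6 hpd replicate 1 or 2, 0 and 1 were called up at 6 hpd.

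**Figure D1:**
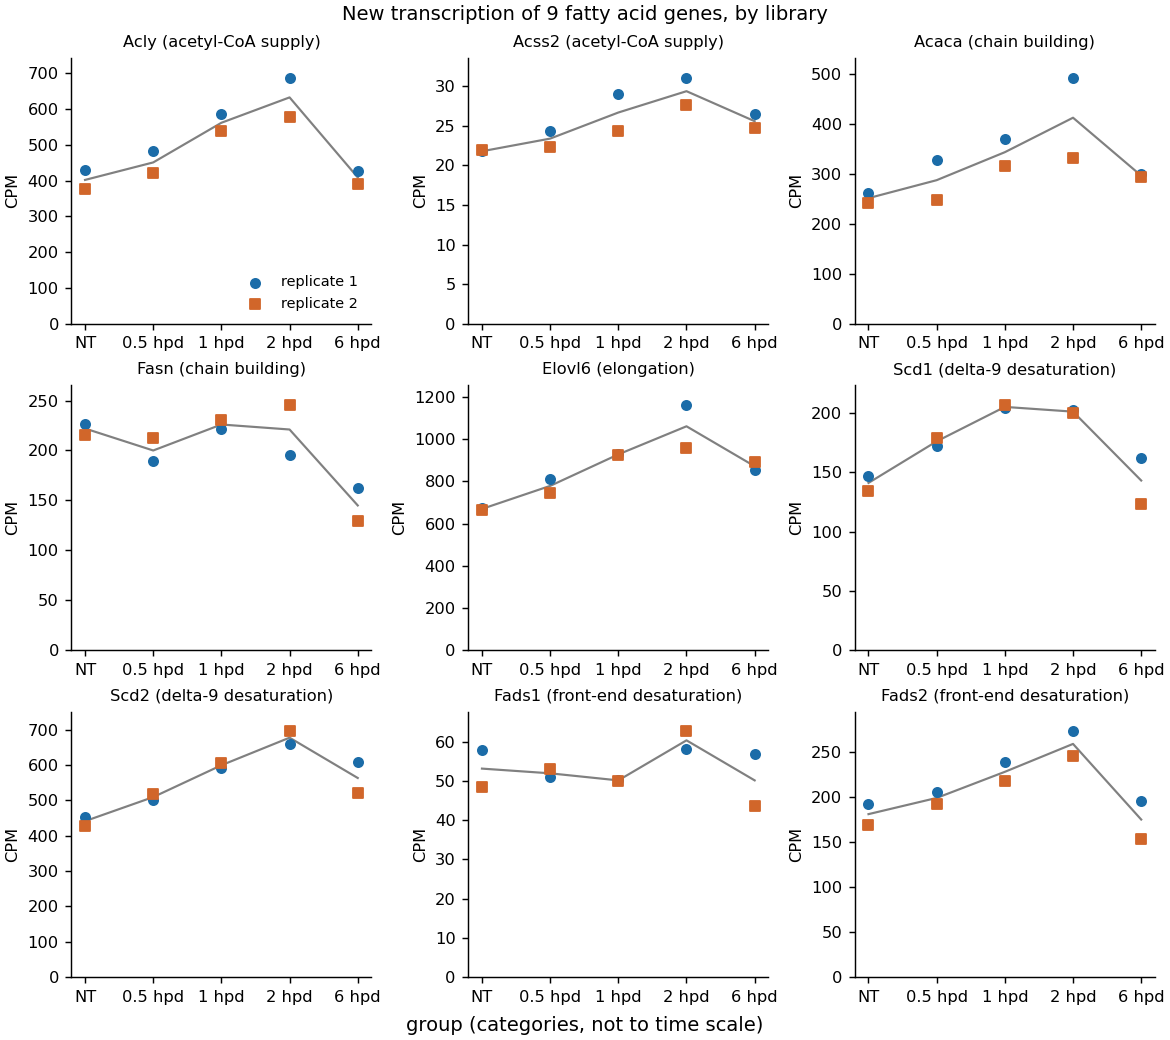
Level of each gene in each library, with CPM from 0 on the y axis, the 5 groups on the x axis, circles for replicate 1, squares for replicate 2 and a gray line through the mean of both. Acly, Acss2, Acaca, Elovl6, Scd1, Scd2 and Fads2 peak at 1 or 2 hpd, whereas Fasn is lowest at 6 hpd (162 and 129 CPM).

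Both genes that supply acetyl-CoA rose. Acly had 429 and 376 CPM in the NT replicates, 482 and 421 after 0.5 h, 586 and 539 after 1 h, 688 and 579 after 2 h, and 428 and 390 after 6 h. The libraries at 1 and 2 hpd lay above both NT libraries, and those at 0.5 and 6 hpd overlapped them. Its log2 change against NT was 0.17 ± 0.12 (SE, n = 2 per group; edgeR adjusted p 0.78), 0.48 ± 0.12 (0.028), 0.66 ± 0.12 (0.0027) and 0.02 ± 0.12 (0.92), so that it stood 1.57-fold above NT at 2 hpd. Neither call survived the absence of NT replicate 2, and the earlier one needed both 1 hpd libraries. Acss2 was the least transcribed of the 9, with 21.8 and 21.9 CPM in NT, 24.4 and 22.4 after 0.5 h, 29 and 24.4 after 1 h, 31.1 and 27.6 after 2 h, and 26.5 and 24.7 after 6 h. Every depleted library lay above both NT libraries, yet only the change at 2 hpd was called (0.43 ± 0.12, adjusted p 0.039), against 0.29 ± 0.12 at 1 hpd (0.24) and 0.23 ± 0.13 at 6 hpd (0.23). That call was lost under 7 of 17 alternatives, namely total counts, only the libraries compared, and the absence of either NT library, of 2 hpd replicate 1 or of either 6 hpd library.

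Of the genes that build the chain, Acaca rose at 2 hpd and Fasn fell at 6 hpd. Acaca had 261 and 242 CPM in NT, 328 and 247 after 0.5 h, 370 and 316 after 1 h, 492 and 332 after 2 h, and 300 and 293 after 6 h. Its libraries from 1 hpd on lay above NT, but the replicates at 2 hpd differed by 0.57 on the log2 scale, the widest gap of any group for this gene. The log2 change was 0.71 ± 0.17 at 2 hpd (adjusted p 0.013), the largest of the 9 genes, after 0.45 ± 0.17 at 1 hpd (0.16) and before 0.24 ± 0.17 at 6 hpd (0.36). Without 2 hpd replicate 1 the change at 2 hpd was 0.40 and not called, and without NT replicate 1 or NT replicate 2 the call was lost too. Fasn had 227 and 216 CPM in NT, 189 and 212 after 0.5 h, 222 and 231 after 1 h, 195 and 246 after 2 h, and 162 and 129 after 6 h. Its libraries at 1 and 2 hpd overlapped those of NT, and at 6 hpd both lay below every other library. The log2 change was -0.15 ± 0.13 at 0.5 hpd, 0.03 ± 0.13 at 1 hpd and -0.01 ± 0.13 at 2 hpd (edgeR adjusted p of 0.84, 0.93 and 0.98), and the TU fell by 0.61 ± 0.13 at 6 hpd (0.0055), to 0.656 of its NT level. The sign at 1 hpd turned with total counts and without 1 hpd replicate 2, and that at 2 hpd with RLE factors, no count filter, only the libraries compared, DESeq2, and without NT replicate 1 or 2 hpd replicate 1. Without 6 hpd replicate 2 the change at 6 hpd was -0.45 and not called.

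The level of Acaca over that of Fasn within a library, 1.15 and 1.12 in the NT replicates, was 1.85 and 2.28 after 6 h, and that of Elovl6 over Fasn went from 2.97 and 3.07 to 5.26 and 6.91. Neither ratio overlapped between NT and 6 hpd. These ratios are descriptions with no test of their own.

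Elovl6 had the highest CPM of the 9 genes, a level that is not per length. It had 674 and 664 CPM in NT, 810 and 745 after 0.5 h, 931 and 923 after 1 h, 1163 and 956 after 2 h, and 852 and 890 after 6 h, each depleted library above both NT libraries. The log2 change was 0.22 ± 0.11 (adjusted p 0.61), 0.47 ± 0.11 (0.023), 0.66 ± 0.11 (0.0015) and 0.38 ± 0.11 (0.035) at the 4 times. The call at 2 hpd held under all 17 alternatives run, with log2 changes of 0.52 to 0.79. The calls at 1 and 6 hpd needed both NT and both 1 hpd libraries, and the latter was also lost without either 6 hpd library and under the filter at 50 mean counts.

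Of the stearoyl-CoA desaturases, Scd2 had its highest mean at 2 hpd and Scd1 at 1 hpd. For Scd1 the step from 1 to 2 hpd was not called (log2 change of -0.03 ± 0.12), so the time of its peak was not resolved. Its replicates had 147 and 134 CPM in NT, 172 and 179 after 0.5 h, 204 and 207 after 1 h, 202 and 200 after 2 h, and 162 and 123 after 6 h. The libraries from 0.5 to 2 hpd lay above NT and those at 6 hpd lay on either side of it. The log2 change was 0.54 ± 0.12 at 1 hpd (adjusted p 0.013), 0.51 ± 0.12 at 2 hpd (0.013) and 0.02 ± 0.12 at 6 hpd (0.94), where the sign turned with total counts, under the filter at 50 mean counts, with only the libraries compared, and without NT replicate 2 or 6 hpd replicate 1. Both calls needed NT replicate 2, and the one at 1 hpd also both libraries of its time. Scd2, its neighbor on chromosome 19, had 454 and 427 CPM in NT, 500 and 518 after 0.5 h, 591 and 606 after 1 h, 658 and 695 after 2 h, and 607 and 520 after 6 h. No depleted library of Scd2 overlapped NT. Its log2 change was 0.21 ± 0.11 (adjusted p 0.59), 0.44 ± 0.11 (0.023), 0.62 ± 0.11 (0.0016) and 0.35 ± 0.11 (0.036). As for Elovl6, the call at 2 hpd held under all 17 alternatives (0.51 to 0.66). Its calls at 1 and 6 hpd likewise needed both NT and both 1 hpd libraries, and the latter was also lost in the absence of 6 hpd replicate 1, with total counts and under the filter at 50 mean counts. Scd2 over Scd1 within a library was 3.08 and 3.19 in NT, 2.9 and 2.93 after 1 h, and 3.74 and 4.23 after 6 h, higher at 6 hpd than in any NT library, with no test of its own.

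Of the front-end desaturases, which are transcribed away from each other on chromosome 19, Fads2 rose and Fads1 was not called, a difference that was not tested. Fads2 had 192 and 169 CPM in NT, 206 and 192 after 0.5 h, 239 and 218 after 1 h, 273 and 246 after 2 h, and 196 and 153 after 6 h. From 0.5 to 2 hpd its libraries lay above NT, and at 6 hpd they lay on either side of it. The log2 change was 0.34 ± 0.13 at 1 hpd (adjusted p 0.15), 0.52 ± 0.13 at 2 hpd (0.015) and -0.05 ± 0.13 at 6 hpd (0.83). The call at 2 hpd needed NT replicate 2 and 2 hpd replicate 1, and the sign at 6 hpd turned without NT replicate 1 or 6 hpd replicate 2. Fads1 had 57.8 and 48.4 CPM in NT, 50.9 and 52.9 after 0.5 h, 50.2 and 49.9 after 1 h, 58.1 and 62.6 after 2 h, and 56.7 and 43.5 after 6 h. Its NT replicates were further apart than the mean of any depleted group was from the NT mean, and no time point was called, with the largest log2 change at 2 hpd (0.18 ± 0.13, adjusted p 0.41). Fads2 over Fads1 within a library was 3.32 and 3.5 in NT, 4.05 and 3.63 after 0.5 h, and 4.76 and 4.36 after 1 h. It was 4.7 and 3.93 after 2 h and 3.46 and 3.53 after 6 h. The NT libraries overlapped those at 6 hpd only, and the ratio had no test of its own.

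**Figure D2:**
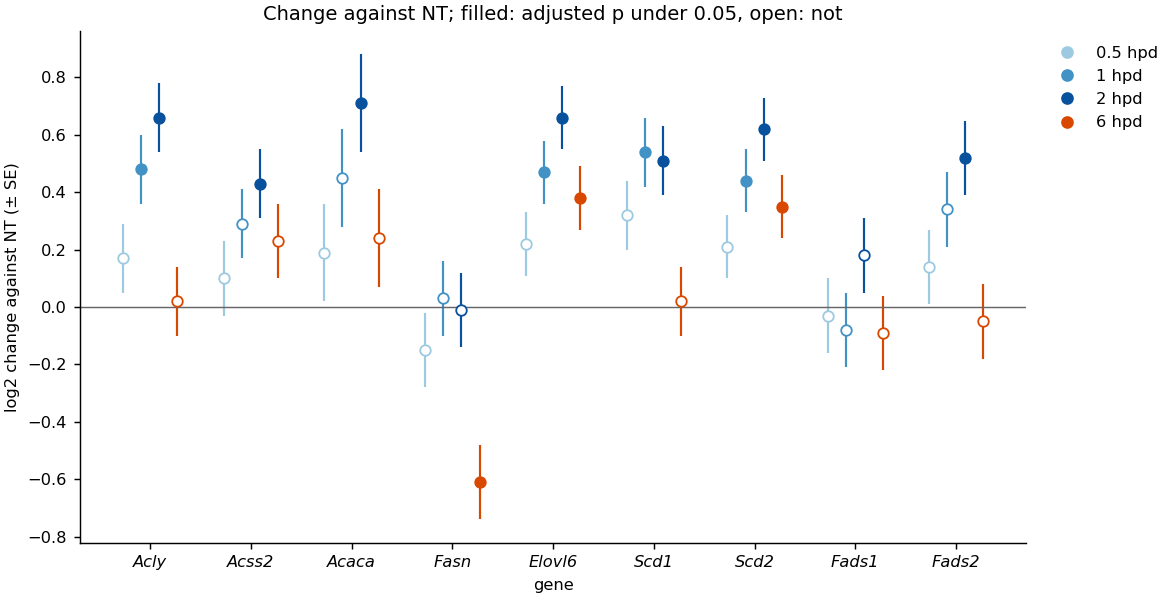
Log2 change of each gene against NT on the y axis, with SE bars from the edgeR fit, the 9 genes on the x axis and 1 color for each time point. Filled points have an adjusted p under 0.05. The filled points above 0 are 4 at 1 hpd, 7 at 2 hpd and 2 at 6 hpd, and the only filled point below 0 is Fasn at 6 hpd (-0.61).

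The time of the highest mean was 2 hpd for 6 of the 7 genes called up and 1 hpd for Scd1, whose gain over NT at 2 hpd was 93.7% of that at 1 hpd. Fads1 also had its highest mean at 2 hpd and Fasn at 1 hpd, neither called. At 1 hpd the 6 genes with a peak at 2 hpd had reached 57.1% (Acaca) to 69.3% (Acly) of their gain in CPM over NT, and at 0.5 hpd 20.6% (Acss2) to 29.1% (Scd2), against 54.1% for Scd1. With 1 library left out, the share reached at 0.5 hpd went from -2.97% to 49.5% for Acaca, from 8.01% to 36.2% for Acly, from 7.5% to 36.6% for Acss2, from 11.5% to 34.4% for Fads2, from 19.5% to 37.9% for Elovl6, from 25.4% to 32.9% for Scd2 and from 47.2% to 59.5% for Scd1, so that Scd1 and Acaca overlapped. The share reached at 1 hpd went from 33.5% to 94.5% for Acss2 and from 40.3% to 114% for Acaca. No member was called between 0.5 and 1 hpd or between 1 and 2 hpd (0.109% and 0.218% of all TUs were called, in either direction). At an unadjusted p under 0.05, edgeR gave 3 and 0 of the 9 (5.34% and 5.8% of all TUs), and DESeq2 called 0 and 0 after adjustment, so the step between neighboring times was not resolved for any 1 gene. Acaca peaked at 1 hpd without 2 hpd replicate 1. The highest mean of Fasn was in NT with total counts and in the absence of 1 hpd replicate 2, and at 2 hpd in the absence of 2 hpd replicate 1.

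The share of the gain still present at 6 hpd was read for the 7 genes called up. Of the gain at the peak, 2.88% was left at 6 hpd for Acly, 2.94% for Scd1 and -7.25% for Fads2. For Acaca 28% was left, and for Acss2, Elovl6 and Scd2 50%, 51.6% and 52%. Tested directly, 3 genes were lower at 6 than at 2 hpd (0.517% of all TUs were): Acly by -0.63 ± 0.12 (adjusted p 0.024), Fasn by -0.60 ± 0.13 (0.0496) and Fads2 by -0.57 ± 0.13 (0.0496). Scd1 had -0.50 ± 0.12 (0.079), Acaca -0.47 ± 0.17 (0.26), Elovl6 -0.28 ± 0.11 (0.34), Fads1 -0.27 ± 0.13 (0.45), Scd2 -0.26 ± 0.11 (0.35) and Acss2 -0.20 ± 0.12 (0.59), all 9 genes lying below 0. Against 1 hpd, 3 genes were lower at 6 hpd (2.92% of all TUs were): Fasn by -0.64 ± 0.13 (adjusted p 0.01), Scd1 by -0.53 ± 0.12 (0.02) and Acly by -0.46 ± 0.12 (0.0416). Whether the share left differs between genes was not tested. The number called lower than at 2 hpd was 4 with DESeq2 (Scd1 added, adjusted p 0.022), 1 with RLE factors and 0 with only the libraries compared, and it was 0 in the absence of either 1 hpd library or of 6 hpd replicate 2 and 1 in the absence of any 1 of the NT and 2 hpd libraries. That called lower than at 1 hpd was 0 without either 1 hpd library or without 6 hpd replicate 2. With 1 library left out, the share left ranged from -6.75% to 14.8% for Acly, from -24.8% to 33.5% for Scd1 and from -32.5% to 19.8% for Fads2. It ranged from 20.7% to 56% for Acaca, from 41.5% to 65.1% for Acss2, from 44% to 70.2% for Elovl6 and from 35.7% to 70.3% for Scd2. The ranges of Scd1 and Acaca overlapped and those of Scd1 and Scd2 nearly met, in each of Scd1, Scd2 and Fads2 with a 6 hpd library left out at both ends of the range. With total counts the share was -9.69% for Acly, -12.1% for Scd1 and -27% for Fads2.

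**Figure D3:**
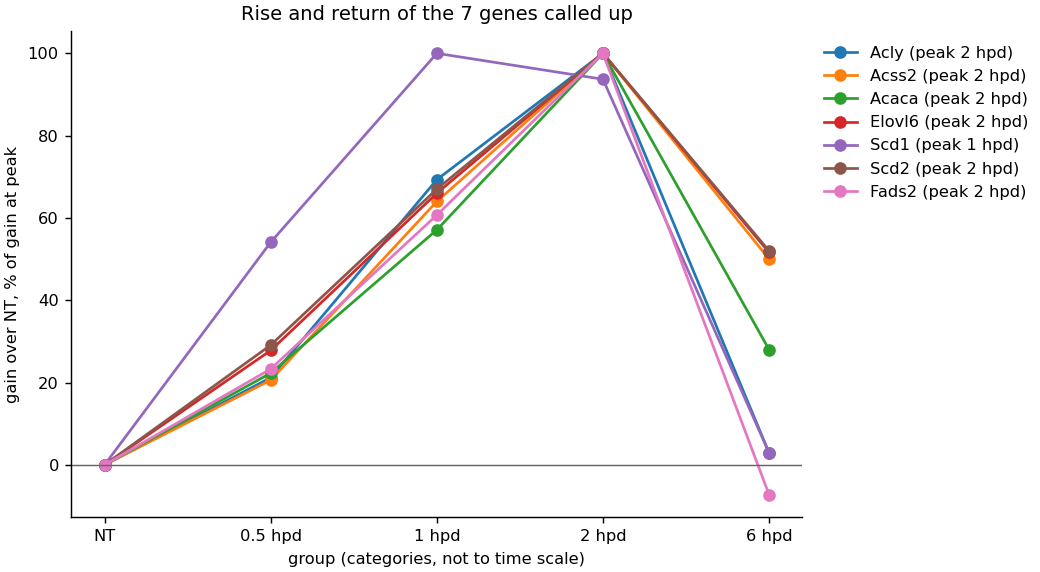
Gain in mean CPM over NT as a percentage of the gain at the peak on the y axis, by group on the x axis, with 1 line for each of the 7 genes called up at its peak. Scd1 is the line that reaches 100 at 1 hpd, and at 6 hpd Acly, Scd1 and Fads2 lie near 0 while Acss2, Elovl6 and Scd2 lie between 50 and 52.

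A joint test of the 4 time points called 6 of the 9 genes (Acly, Fasn, Elovl6, Scd1, Scd2 and Fads2, adjusted p of 0.0036, 0.017, 0.0075, 0.0089, 0.0081 and 0.02), against 12.3% of all TUs. Acaca (0.0515), Acss2 (0.14) and Fads1 (0.47) were not called. Without NT replicate 2 the joint test called 1 of the 9.

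Levels can be compared between genes only per length. In NT, Scd2 had 11.2 CPM per kb of TU, followed by Fasn (7.88), Acly (7.29), Elovl6 (4.99), Fads2 (3.5), Scd1 (3.27), Fads1 (2.42), Acaca (1.09) and Acss2 (0.245). The libraries of Fasn and Acly overlapped on this scale, as did those of Fads2 and Scd1, and the other neighbors in this order did not. At 6 hpd Fasn (5.17 CPM per kb) stood behind Acly (7.41) and Elovl6 (6.49), with no overlap between their libraries, and Scd2 (14.4) led again. The long stretches past the annotated ends of Acss2, Scd1 and Scd2 enter these lengths.

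Across the 10 libraries, the log2 CPM of Acly and Fads2 followed the mean of the other 8 genes most closely (Pearson's r of 0.972 and 0.971), and those of Fads1 and Fasn least (0.524 and 0.278), with the other 5 between 0.766 and 0.862. The points share libraries and NT controls, and r is a description over 10 libraries. Of 11929 TUs with a symbol and a mean of at least 50 counts, those most like the mean of the 9 genes included Rdh11 (r of 0.987), Lss (0.981), Aacs (0.971) and Insig1 (0.969). Lss encodes lanosterol synthase, an enzyme of sterol synthesis, and Insig1 encodes a protein that holds the SREBPs in the endoplasmic reticulum. Lss had log2 changes of 0.40, 1.15, 1.49 and 0.22 at the 4 times, called at 1 and 2 hpd (edgeR adjusted p 8.3e-05 and 4.3e-06). Lss was picked for its likeness to the 9 genes in these same libraries. A rise and return is therefore built into that choice and is no separate result.

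Genes around the pathway were read from further lists, beside the shares of all TUs called up (0.527%, 2.15%, 4.26% and 6.61%) and down (0.787%, 3.61%, 5.57% and 9.2%) at the 4 times. Of 14 tested regulators of lipid synthesis, 0, 3, 3 and 2 were called up at the 4 times and 0 down, with a median log2 change of -0.02, 0.04, 0.16 and 0.18. The regulators called up at 1 and 2 hpd included Srebf2, which encodes an SREBP and went from 279 and 254 CPM in NT to 371 and 371 after 1 h, 439 and 416 after 2 h and 339 and 331 after 6 h (log2 changes of 0.48, 0.68 and 0.33, adjusted p of 0.0087, 0.00038 and 0.036). Insig1 had 89.3 and 82.1 CPM in NT, 176 and 179 after 2 h and 113 and 88.1 after 6 h (1.05 at 2 hpd, adjusted p 3.5e-05, and 0.23 at 6 hpd, 0.2). Mlxipl, which encodes the carbohydrate-responsive factor ChREBP, rose at 1, 2 and 6 hpd, with log2 changes of 0.55, 0.67 and 0.94 (0.016, 0.0027 and 0.00012). The step from 2 to 6 hpd was not tested for Mlxipl. Srebf1 was not analysed here.

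Of 11 other tested enzymes of elongation and desaturation, 0, 0, 2 and 1 were called up and 0 down, where the 1 at 6 hpd is near the 6.61% of all TUs called up. Hsd17b12 and Hacd2, which carry out later steps of the elongation cycle that Elovl6 opens, rose at 2 hpd (log2 changes of 0.73 and 0.52, adjusted p of 0.0039 and 0.011), and Elovl7, another elongase, at 6 hpd (0.39, 0.02). Of 12 genes of citrate, acetyl-CoA and NADPH supply, 0, 3, 5 and 3 were called up, against 0.527%, 2.15%, 4.26% and 6.61% of all TUs, and 0, 1, 0 and 1 down, which at 6 hpd is no more than the 9.2% of all TUs. Aacs, which makes acetoacetyl-CoA in the cytosol, had 58.9 and 54.9 CPM in NT, 125 and 127 after 2 h and 64.4 and 52.2 after 6 h (1.15 at 2 hpd, adjusted p 1.1e-05, and 0.03 at 6 hpd, 0.88). Acss1, the mitochondrial counterpart of Acss2, rose at 1, 2 and 6 hpd (0.50, 0.93 and 1.43, adjusted p of 0.019, 0.00011 and 1.3e-06), and Me1, the cytosolic malic enzyme, at 2 and 6 hpd (0.67 and 0.78, 0.0022 and 0.0005), with the step from 2 to 6 hpd tested for neither. Slc25a1, the carrier that exports the citrate on which Acly acts, fell by 0.57 at 1 hpd (0.033) and by 0.51 at 6 hpd (0.029).

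**Figure D4:**
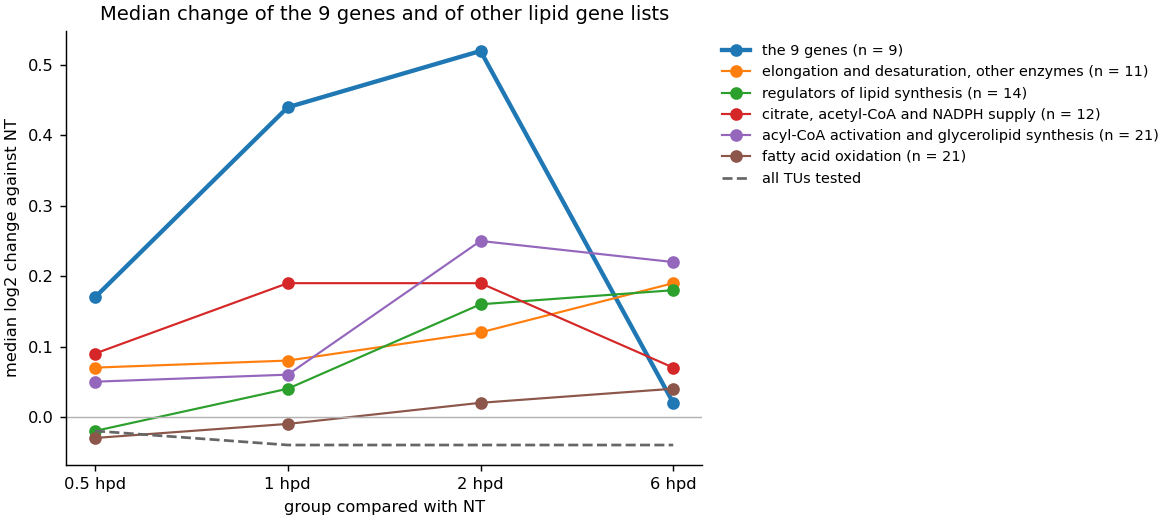
Median log2 change against NT on the y axis at each time point on the x axis for the 9 genes (thick line), for 5 other lipid gene lists and for all TUs tested (dashed). The 9 genes reach 0.52 at 2 hpd and 0.02 at 6 hpd, while the largest median of another list is 0.25 at 2 hpd.

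On the opposite strand, 22 TUs overlapped a TU of the 9 genes and 15 of them were tested, of which 0, 1, 2 and 1 were called up and 0, 1, 1 and 3 down at the 4 times, against 0.527%, 2.15%, 4.26% and 6.61% of all TUs up and 0.787%, 3.61%, 5.57% and 9.2% down. At these numbers single calls are near the background. The TU that fell at 1 and 2 hpd lies inside the Elovl6 gene (chromosome 3, 129562089 to 129576665, minus strand) and had few fragments, 32.6 per library on average. Its replicates had 3.1 and 3.85 CPM in NT, 2.42 and 2.74 after 0.5 h, 1.25 and 1.65 after 1 h, 1.11 and 0.935 after 2 h, and 1.48 and 1.46 after 6 h. Every depleted library lay below both NT libraries, while every depleted library of Elovl6 itself lay above its own. Of all TUs, 19%, 26.7%, 26.6% and 31% had both libraries below NT at the 4 times. This TU is shown because it fell, and a link between it and Elovl6 was not tested. Its log2 change was -0.44 ± 0.25 at 0.5 hpd (edgeR adjusted p 0.66), -1.24 ± 0.27 at 1 hpd (0.012), -1.75 ± 0.28 at 2 hpd (0.00089) and -1.24 ± 0.27 at 6 hpd (0.0063). The antisense TU that crosses the start of Elovl6 was not called (0.28, 0.12, 0.44 and 0.09, with adjusted p of 0.71, 0.76, 0.13 and 0.76). The antisense TU over the start of Scd1, by comparison, was called at 6 hpd only (-0.82 ± 0.21, adjusted p 0.015), when Scd1 itself was back near NT, and the TU opposite Scd2 only at 2 hpd (0.51 ± 0.15, 0.04).

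**Figure D5:**
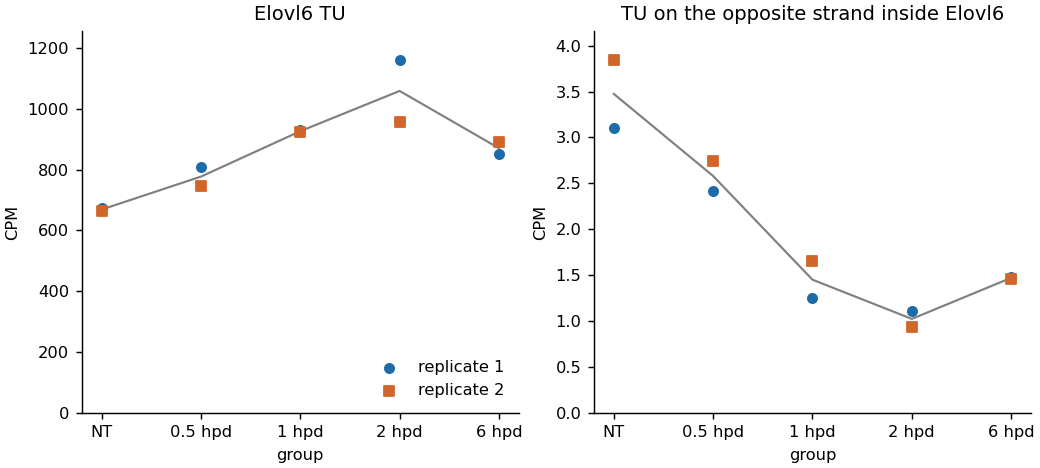
CPM from 0 on the y axis, by group on the x axis, of the Elovl6 TU (left) and of the TU on the opposite strand inside the gene (right), with circles and squares for replicates 1 and 2 and a gray line through their mean. Elovl6 is highest at 2 hpd (1163 and 956 CPM), where the opposite TU is lowest (1.11 and 0.935).

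Of the nearest TUs that do not overlap one of the 9 genes, 26 were tested. At the 4 times 0, 0, 0 and 1 of them were called up and 0, 0, 2 and 5 down. Of all TUs, 0.527%, 2.15%, 4.26% and 6.61% were called up and 0.787%, 3.61%, 5.57% and 9.2% down. The 2 falls at 2 hpd are near that share. Some TUs on the same strand adjoin those of Fasn and Acly. Ccdc57 ends 11 bp upstream of Fasn and had log2 changes of -0.06, -0.15, -0.33 and -0.24 (adjusted p of 0.94, 0.48, 0.0509 and 0.12), and Dus1l, which starts 11 bp downstream of Fasn, fell by 0.40 at 2 hpd (0.0409) and by 0.48 at 6 hpd (0.011). Dnajc7, 11 bp upstream of Acly, was not called at any time (0.16, 0.20, 0.03 and -0.11). Gss, opposite the far end of the Acss2 TU, was called up at 1, 2 and 6 hpd (0.46, 0.57 and 0.53, adjusted p of 0.011, 0.0016 and 0.0019), and Myh7b, downstream of Acss2, fell at 2 and 6 hpd (-0.73 and -0.89, 0.0058 and 0.0011). Klhl11, 11 bp downstream of Acly, was not called either (0.10, 0.16, 0.15 and 0.11). The part that adjoining TUs have in the values of Fasn and Acss2 was not tested.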

How the data were processed

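Values are fragment counts per TU, deposited by the authors without normalization. Per the study's methods and the submitters' processing notes, the authors mapped reads (mm10, BWA 0.7.17-r1188), filtered them with SAMtools 1.10, removed duplicates with Picard 2.12.0 and split them by strand. They defined TUs on pooled data with a hidden Markov model and linked them to RefSeq genes. Starts in the deposited table count from 0, and 1 was added.

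TUs exceeding 10 fragments in 2 or more libraries were kept (28459, leaving out 12320 that held 0.316% of fragments). Counts were fitted in edgeR 4.0.16 (R 4.3.3) with TMM factors, 1 coefficient per group over all 10 libraries and no covariates, and tested with the quasi-likelihood F-test and Benjamini-Hochberg adjustment. SE is the size of the log2 change over the square root of F. Log2 CPM used a prior count of 2. The biological coefficient of variation was 10.0%, and replicate pairs differed by more than counting error (chi-square over degrees of freedom, 2.69 to 9.03), so none was a copy of the other. This cannot tell separate cultures from separate library preparations of 1 culture. The share of a gain left is computed from group means. The procedure was tested on simulated data.

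The 9 genes, gene lists and tests were chosen with earlier results of these data known. Named beside the 9 were, from each list, the called genes with the 2 largest rises and falls at 2 and 6 hpd, Srebf2, Insig1, Sox2 and Klf2, the 5 TUs most like the mean, and neighboring or opposite TUs. From these, examples are given, some items are not reported here, and Dnajc7, Ccdc57 and Gss were picked after their values were seen. Alternatives were DESeq2 1.42.0, RLE factors, total counts, no count filter, a stricter filter (mean count of 50 or more), fits to only the libraries compared, a block for the replicate number, and the absence of each library. Figures were drawn with matplotlib 3.10.9.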

Additional observations from a re-analysis of the deposited data

Results flagged for a closer look

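For 4 genes the effect at 6 hpd differed from that at an earlier time by the direct test of the difference in edgeR. Against 2 hpd, the log2 change was -0.63 for Acly, -0.60 for Fasn and -0.57 for Fads2. Against 1 hpd it was -0.46 for Acly, -0.64 for Fasn and -0.53 for Scd1. For Acly, Scd1 and Fads2 this was a return from a called rise to near the NT level, and for Fasn a fall below NT from a level that was not called different from it. Both comparisons share the 6 hpd libraries. The call of Fasn against 2 hpd was lost with RLE factors, with total counts, under the filter at 50 mean counts and with only the libraries compared. That of Fads2 was lost with RLE factors and with only the libraries compared, and that of Acly with the latter. Against 1 hpd, Acly lost its call with RLE factors. Calls were also lost when single libraries were left out. Groups of 2 libraries were too small for a test of outlying libraries.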

How the results depend on the processing

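With TMM factors as the reference, total counts moved the median log2 change of all TUs by -0.12 at 2 hpd, and those of the 9 genes by -0.13 to -0.1. The replicate numbers were not taken as pairs: the labels do not say what they share, and the deviations of same-numbered libraries correlated at 0.0742 to 0.291, above 0.1 for 8 of 10 pairs of groups. All 10 were above 0, so each library deviated more like its own number than like the other, a hint from the data and not from the design. With the replicate block, 6 genes were called up at 1 hpd, 7 at 2 hpd and 2 at 6 hpd, and Acaca and Fads2 joined the calls at 1 hpd (adjusted p of 0.015 and 0.02). With this replicate block, 5 genes were lower at 6 than at 2 hpd, with Acaca (0.033) and Scd1 (0.0095) added, 4 were lower at 6 than at 1 hpd, with Fads2 (0.0085) added, and the joint test called 8 of the 9, with Acaca (adjusted p 0.0012) and Acss2 (0.023) added. The number lower than at 2 hpd was 1 with RLE factors and 0 with only the libraries compared. The number up at 6 hpd was 1 with total counts and 0 under the filter at 50 mean counts.

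Leaving out 1 library gave 0 to 5 genes up at 1 hpd, 2 to 7 at 2 hpd, 0 to 2 at 6 hpd and 0 to 1 down at 6 hpd, 0 to 3 lower at 6 than at 2 hpd and 0 to 3 than at 1 hpd, and 1 to 7 in the joint test. Where a group was left with 1 library, that library is assumed to vary like the others.

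Among the changes against NT, signs that turned belonged to changes that were not called, of at most 0.19 in size. Between depleted groups larger ones turned too: Acaca at 2 against 1 hpd (0.26, not called) ranged from -0.05 to 0.49 with 1 library left out. At 6 hpd, Acly was -0.065 with total counts and -0.026 under the filter at 50 mean counts, and Scd1 was -0.069, -0.032 and, with only the libraries compared, -0.004. Fasn was -0.057 at 1 hpd with total counts, and at 2 hpd 0.023 with RLE factors, 0.004 with no count filter, 0.009 with only the libraries compared and 0.023 with DESeq2. With 1 library left out, Acaca at 0.5 hpd ranged from -0.028 to 0.39, Fads1 at 0.5 hpd from -0.15 to 0.10, Fasn at 1 hpd from -2.5e-04 to 0.081, Fads1 at 1 hpd from -0.19 to 0.066, Fasn at 2 hpd from -0.20 to 0.15, Acly at 6 hpd from -0.048 to 0.14, Scd1 at 6 hpd from -0.18 to 0.21, Fads1 at 6 hpd from -0.27 to 0.094, Fads2 at 6 hpd from -0.22 to 0.12. The cause was not tested. Each TU of the 9 genes held 262 fragments or more in every library, and each group had 2 libraries.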

Other observations

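Some genes that use the products of the pathway were called. Of 21 tested genes of acyl-CoA activation and glycerolipid synthesis, 1, 4, 4 and 6 were called up at 0.5, 1, 2 and 6 hpd and 0, 0, 0 and 1 down. Of all TUs, 0.527%, 2.15%, 4.26% and 6.61% were called up and 0.787%, 3.61%, 5.57% and 9.2% down. The single fall at 6 hpd is thus no more than the share of all TUs. The list had a median log2 change of 0.05, 0.06, 0.25 and 0.22. Lpin1, a phosphatidate phosphatase of triglyceride and phospholipid synthesis, was the gene called at 0.5 hpd (0.54, edgeR adjusted p 0.018). It had 114 and 128 CPM in NT, 173 and 180 after 0.5 h, 225 and 254 after 1 h, 290 and 288 after 2 h, and 153 and 164 after 6 h, with no overlap with NT at any time. Dgat2, an acyltransferase of triglyceride synthesis, had only 3.03 and 2.91 CPM in NT and rose by 0.96 at 2 hpd (0.01). Acsl4, which activates polyunsaturated fatty acids, rose by 0.93 at 2 hpd (0.0076) and 0.73 at 6 hpd (0.023), and Pnpla3, a lipase, fell by 0.65 at 6 hpd (0.032).

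Genes of fatty acid oxidation, the opposite process, showed no common direction. Of 21 tested, 0, 2, 2 and 3 were called up and 0, 2, 1 and 1 down, with medians of -0.03, -0.01, 0.02 and 0.04. Of all TUs, 0.527%, 2.15%, 4.26% and 6.61% were called up and 0.787%, 3.61%, 5.57% and 9.2% down. The single falls at 2 and 6 hpd lie below these shares. Acadm, a mitochondrial acyl-CoA dehydrogenase, had 85.5 and 77.8 CPM in NT and 49.7 and 51.3 after 2 h, and fell by 0.61, 0.69 and 0.55 on the log2 scale at 1, 2 and 6 hpd (adjusted p of 0.0023, 0.00051 and 0.0021). Slc25a20, the carnitine carrier of mitochondria, rose by 0.54 at 6 hpd (0.0026).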
